A study of Homo sapiens with 6 samples.

Results

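The NF-kB genes described here are 10 genes chosen by name from the 24878 genes of a deposited count table: the subunit genes NFKB1, NFKB2, REL and RELB, the inhibitor genes NFKBIA and TNFAIP3, and the chemokine and cytokine genes CXCL8, CXCL2, IL1B and TNF. All 10 were found in the table and all 10 passed the filter on low counts, which left 14601 genes for testing. The RNA came from MOLM-13, an established human cell line from acute myeloid leukaemia of subtype M5, which is monocytic. KO-labelled cells carried a doxycycline-inducible vector made to knock out CAMK2D, the delta isoform of calcium/calmodulin-dependent protein kinase II, and were taken after 3 days of doxycycline (2 libraries) or after 5 days (2 libraries). Control cells carried a control vector and were labelled as not induced (2 libraries), so vector and doxycycline differ together between KO-labelled and control libraries and cannot be told apart. Poly-A RNA was sequenced, and the comparisons ask how mRNA levels differed between KO-labelled cells at each day and control cells, and between the days.

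NF-kB is a family of transcription factors that bind DNA as dimers and wait in the cytoplasm until a signal frees them. The IkB proteins, of which NFKBIA encodes IkB-alpha, hold the dimers there, and IKK kinases mark IkB for breakdown when receptors for TNF, IL-1 or microbial products are engaged. NFKBIA and TNFAIP3 are themselves NF-kB targets and act as brakes on the signal, while CXCL8, CXCL2, IL1B and TNF are textbook inflammatory targets of NF-kB in monocytic cells.

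Library totals ran between 15456770 and 21081298 counts, and expression is given as CPM, counts scaled to library size with TMM factors. At a floor of 3 counts the shallowest library resolved 0.193 CPM, a limit that covers counting error only. The targeted gene did not mark the knockout at the mRNA level: CAMK2D had 14.7 and 15.6 CPM in KO-labelled day 3 libraries, 28.9 and 28.1 CPM in KO-labelled day 5 libraries and 23.0 and 14.5 CPM in control libraries, and neither day passed the test against control; with the replicate number as a block, day 5 passed as higher (0.63 on the log2 scale, edgeR adjusted p = 0.0198). All 13 myeloid line markers examined were in the table. Their summed level was 1250.4 and 1373 CPM at day 3 and 1332 and 1619 CPM at day 5. It was 2983 and 3595 CPM in control libraries. Without the block 5 of 13 were lower at day 3 (FLT3, MPO, ITGAM, ITGAX and SPI1), where 5.99% of all genes tested were. At day 5, 4 were lower (FLT3, MPO, ITGAM and SPI1) and 1 higher (CEBPA). Of all genes, 7.05% were lower and 7.44% higher at that day. PTPRC, CD33, HOXA9, MEIS1, LYZ, CSF1R and CD14 passed at neither day in that fit. With the block 7 of 13 were lower at day 3, and 6 were lower and 1 higher at day 5 (53.8% at each day). Of all genes, 27.8% passed with the block at day 3 and 30.3% at day 5. Summed T and NK cell markers, 4 in the table, lay between 43.6 and 124 CPM and were mostly NKG7, with GNLY at or near 0. Summed B cell markers, also 4 in the table, lay between 20.4 and 35.6 CPM and were mostly PAX5, with CD79B at or near 0. The 2 erythroid and megakaryocytic markers in the table summed to at most 1.04 CPM. Epithelial and stromal markers, 5 in the table, summed to between 120 and 366 CPM, mostly PECAM1 and VIM, with COL1A1 at or near 0. The part of these marker levels in the results below was not tested. Whether replicate libraries were grown as separate cultures is not in the labels, and the p-values therefore reflect no more than library-to-library spread, which may be technical. In bulk RNA, fewer cells that express a gene and less of its mRNA per cell cannot be told apart.

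Promoter sequences of the 4 members that passed a test against control without a replicate block are shown because each holds letters of the kappa B motif, the DNA element that NF-kB dimers bind. They are RefSeq windows of GRCh38.p14, written 5′ to 3′ on the gene's strand, from 250 bases before to 50 bases after the annotated start. Capitals mark every match, on either strand, to the kappa B consensus or to the looser form GGANNTTCC, with overlapping matches run together. The windows are chr4:73740319-73740618 (plus strand) for CXCL8, chr4:74099146-74099445 (minus strand) for CXCL2, chr4:102501109-102501408 (plus strand, the first of 2 NFKB1 windows) and chr6:137867009-137867308 (plus strand) for TNFAIP3.
CXCL8: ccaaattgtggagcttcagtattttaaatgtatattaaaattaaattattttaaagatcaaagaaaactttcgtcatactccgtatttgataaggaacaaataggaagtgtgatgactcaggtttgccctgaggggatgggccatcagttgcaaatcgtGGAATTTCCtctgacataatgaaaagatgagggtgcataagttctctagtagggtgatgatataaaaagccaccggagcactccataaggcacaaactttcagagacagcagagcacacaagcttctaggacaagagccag
CXCL2: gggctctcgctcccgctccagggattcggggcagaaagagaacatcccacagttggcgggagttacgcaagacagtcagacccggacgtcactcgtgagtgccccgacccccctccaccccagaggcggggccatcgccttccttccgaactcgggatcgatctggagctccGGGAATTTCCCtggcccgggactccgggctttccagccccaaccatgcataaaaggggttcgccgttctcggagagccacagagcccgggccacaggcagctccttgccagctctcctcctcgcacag
NFKB1: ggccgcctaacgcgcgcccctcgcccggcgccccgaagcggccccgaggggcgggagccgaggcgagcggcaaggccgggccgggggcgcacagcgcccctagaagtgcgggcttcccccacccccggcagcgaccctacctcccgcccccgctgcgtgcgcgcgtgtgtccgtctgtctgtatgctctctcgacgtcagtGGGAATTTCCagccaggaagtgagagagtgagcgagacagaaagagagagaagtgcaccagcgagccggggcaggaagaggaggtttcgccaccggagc
TNFAIP3: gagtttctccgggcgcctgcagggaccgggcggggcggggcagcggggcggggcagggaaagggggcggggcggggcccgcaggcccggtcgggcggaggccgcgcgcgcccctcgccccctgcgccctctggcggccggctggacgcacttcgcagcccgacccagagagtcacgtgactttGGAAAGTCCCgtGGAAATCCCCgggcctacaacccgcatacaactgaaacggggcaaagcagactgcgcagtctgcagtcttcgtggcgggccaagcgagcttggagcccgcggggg

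In these windows the match of CXCL8 lay at -91 to -83 from the start and met only the looser form. CXCL2 had overlapping matches from -78 to -68, NFKB1 from -49 to -40, and TNFAIP3 had separate matches at -67 to -58 and -55 to -46. Of the members, 9 had an entry, with 12 windows of 300 bases in all. The kappa B consensus was found in 6 of these 9 genes and the looser form in 7, namely NFKB1, NFKB2, REL, NFKBIA, TNFAIP3, CXCL8 and CXCL2. Counted by window, 7 of the 12 held the consensus and 7 the looser form. Over all 35116 promoter windows in the table, 11.3% held the consensus and 4.56% the looser form. With 1 window for each tested gene, 13.0% and 4.6% did. No match was found in the windows of IL1B and TNF, which says only that these letters are not there. RELB was not analysed here for promoter sequence.

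The NF-kB members did not all move one way. At day 3 the chemokine gene CXCL8 was lower than in control cells, and none of the 10 members was higher. At day 5 the subunit gene NFKB1 and the inhibitor gene TNFAIP3 were lower, and the chemokine gene CXCL2 was higher. The plot of each gene's level in the 6 libraries shows these patterns, and the plot of fold changes gives their intervals.

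**Figure D1:**
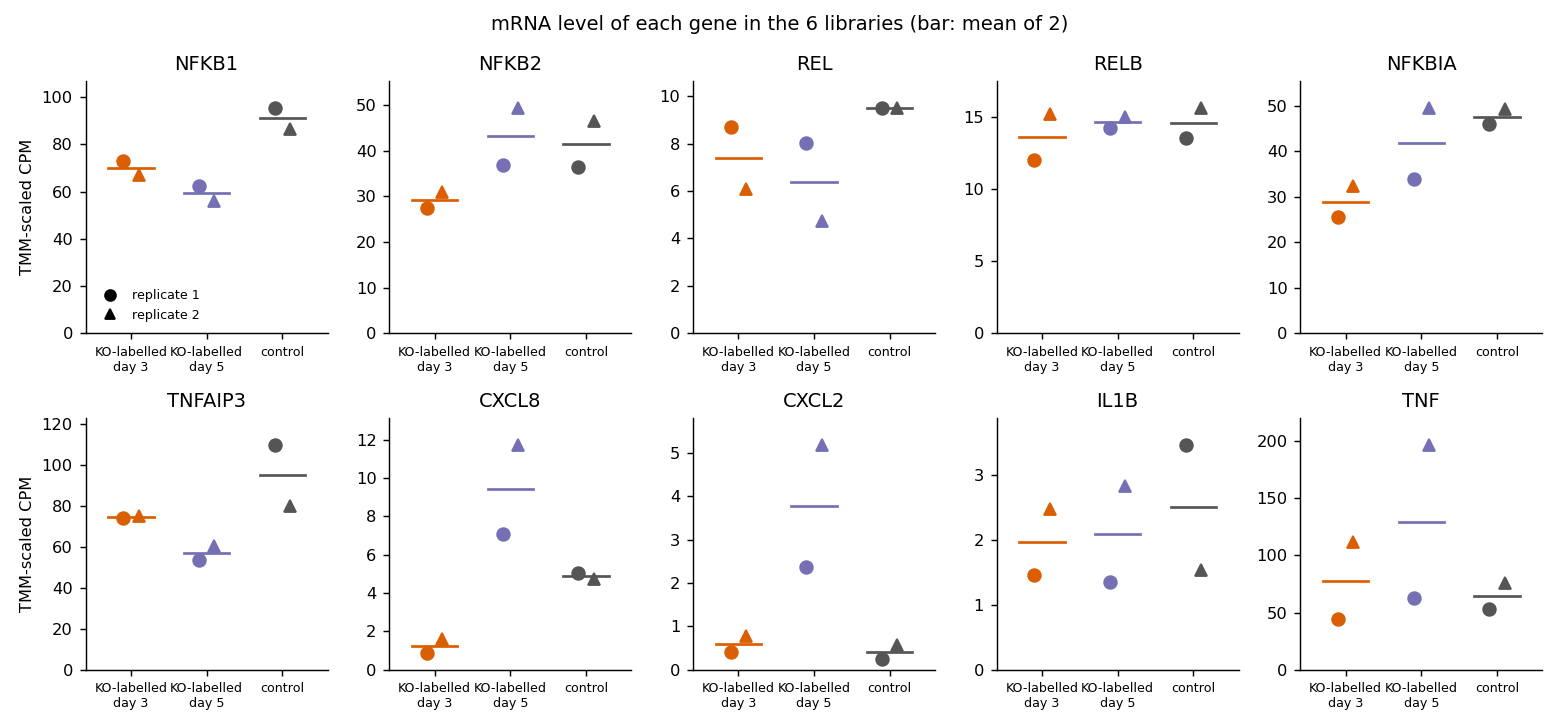
TMM-scaled CPM of the 10 members in the 6 libraries, 1 panel per gene with its own axis from 0; circles are replicate 1, triangles replicate 2 and bars the mean of 2. NFKB1 and TNFAIP3 lie below both control libraries at both days, while CXCL8 lies below them at day 3 and above them at day 5.

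At day 3, 1 of 10 members passed edgeR's quasi-likelihood test at an adjusted p under 0.05 (Benjamini-Hochberg over all genes tested), and it was lower, against a background of 11.7% of all genes tested that passed in either direction, 5.99% that were lower and 5.72% that were higher. Both day 3 libraries lay below both control libraries for 6 of 10 members, namely NFKB1, NFKB2, REL, NFKBIA, TNFAIP3 and CXCL8, where 30.0% of all genes did so. No member lay above both controls, against 30.3% of all genes. With that block, which the same-numbered libraries share with a title letter, 4 members passed at day 3, all lower (NFKB1, NFKB2, NFKBIA and CXCL8), where 27.8% of all genes passed. The median log2 fold change of the members was -0.35, with a median of -0.00012 over all genes tested. At day 5, 3 of 10 members passed, 2 lower and 1 higher, against a background of 14.5% in either direction, 7.05% lower and 7.44% higher. Both day 5 libraries lay below both controls for 3 members (NFKB1, REL and TNFAIP3; background 28.4%) and above both for 2 (CXCL8 and CXCL2; background 29.7%). With the block, 4 members passed at day 5 (NFKB1 and TNFAIP3 lower, CXCL8 and CXCL2 higher), where 30.3% of all genes passed. The members' median at day 5 was -0.09 and that of all genes tested 0.02. The 2 comparisons share the same 2 control libraries.

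**Figure D2:**
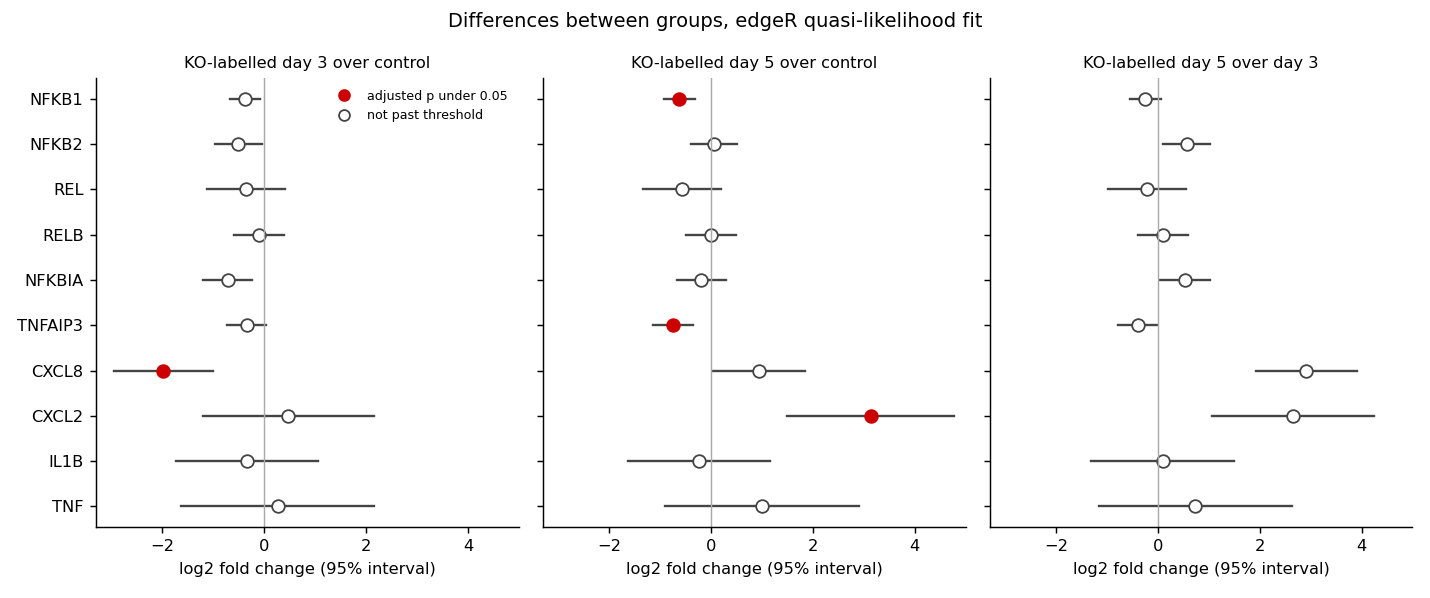
Log2 fold change with its 95% interval for each member in the 3 comparisons, from the edgeR quasi-likelihood fit without the replicate block; filled points passed an adjusted p of 0.05. Filled points are CXCL8 at day 3 and NFKB1, TNFAIP3 and CXCL2 at day 5, and none is filled between the days.

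Among the subunit genes, NFKB1 was the one that passed a test without the replicate block. NFKB1 (chromosome 4, 102501329 to 102617302, plus strand; gene coordinates here and below are GENCODE 29 on GRCh38) encodes a precursor that is cut to a DNA-binding subunit lacking a transactivation domain. It had 72.8 and 67.2 CPM in KO-labelled day 3 libraries, 62.5 and 56.0 CPM in KO-labelled day 5 libraries and 95.4 and 86.7 CPM in control libraries. Both KO-labelled groups lay wholly below the controls, and day 5 wholly below day 3. Against control the log2 fold change was -0.62 ± 0.13 (SE) at day 5 (edgeR adjusted p = 0.0203, n = 2 libraries a group), a call, and -0.38 ± 0.13 at day 3 (edgeR adjusted p = 0.09997), which did not pass without the replicate block and passed with it (edgeR adjusted p = 0.0235). The day 5 call was lost without control replicate 1 (edgeR adjusted p = 0.0534), without day 5 replicate 1 (edgeR adjusted p = 0.0638), without day 5 replicate 2 (edgeR adjusted p = 0.118), and with limma on unfiltered FPKM values (adjusted p = 0.0671).

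NFKB2 (chromosome 10, 102394110 to 102402529, plus strand), whose product is processed in the noncanonical branch of the pathway, had 27.4 and 30.9 CPM at day 3, 37.0 and 49.4 CPM at day 5 and 36.4 and 46.5 CPM in control libraries. Day 3 lay below every other library, and day 5 overlapped control. The log2 fold change was -0.51 ± 0.20 at day 3 (edgeR adjusted p = 0.134) and 0.06 ± 0.20 at day 5 (edgeR adjusted p = 0.874), with a 95% interval of -0.39 to 0.51 for the day 5 difference. Blocked by replicate number, the day 3 difference of NFKB2 passed (-0.50, edgeR adjusted p = 0.0168). REL (chromosome 2, 60881521 to 60931610, plus strand) encodes c-Rel, a transactivating subunit prominent in lymphoid and myeloid cells. It had 8.70 and 6.10 CPM at day 3, 8.03 and 4.75 CPM at day 5 and 9.50 and 9.48 CPM in control libraries. All 4 KO-labelled libraries were below both controls, but replicate 2 was well below replicate 1 at each day, and neither difference passed (edgeR adjusted p = 0.518 at day 3 and 0.288 at day 5). Its exons overlap those of AC010733.2, and since the counting is not stated to use strand the value of REL is uncertain to that extent.

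RELB (chromosome 19, 45001430 to 45038198, plus strand), the usual partner of the processed NFKB2 product, had 12.03 and 15.2 CPM at day 3, 14.2 and 15.1 CPM at day 5 and 13.5 and 15.7 CPM in control libraries. The 3 groups overlapped throughout. The 95% interval of the log2 fold change was -0.59 to 0.39 at day 3 and -0.49 to 0.50 at day 5. Neither difference passed (edgeR adjusted p = 0.798 at day 3 and 0.992 at day 5), and a difference of any size within those bounds remains possible. RELA, the main transactivating subunit and no member of the set, had 95.6 and 102.7 CPM at day 3, 79.0 and 93.6 CPM at day 5 and 97.5 and 99.4 CPM in control libraries and did not pass (edgeR adjusted p = 0.971 at day 3 and 0.367 at day 5).

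Levels per length give the make-up of the subunit mRNA, as each gene's share of the summed FPKM of the 5 subunit genes. Protein was not measured. NFKB1 held 29.2% and 25.6% at day 3, 26.3% and 21.1% at day 5 and 32.9% and 28.7% in control libraries. RELA held 43.9% and 44.8% at day 3, 38.1% and 40.4% at day 5 and 38.5% and 37.7% in control libraries, so its day 3 share lay above every other library. NFKB2 held 15.3% and 16.5% at day 3, 21.7% and 26.0% at day 5 and 17.5% and 21.5% in control libraries, lowest at day 3 and highest at day 5. REL held between 0.850% and 1.66% and RELB between 9.62% and 12.4% over the 6 libraries. FPKM divides by the full annotated exon length, 13170 bases for REL and 3035 for RELB, so the shares depend on that length. These shares are a description with no test, and a rise in one share lowers the others.

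Both inhibitor genes lay below both control libraries at day 3; at day 5 TNFAIP3 did so and NFKBIA overlapped control. TNFAIP3 (chromosome 6, 137867188 to 137883312, plus strand) encodes A20, a ubiquitin-editing enzyme that shuts off signalling below TNF and Toll-like receptors. It had 74.2 and 75.2 CPM at day 3, 53.4 and 60.2 CPM at day 5 and 109.9 and 80.0 CPM in control libraries. The groups did not overlap, but the control libraries were far apart. The log2 fold change was -0.74 ± 0.17 at day 5 (edgeR adjusted p = 0.0263), a call, and -0.34 ± 0.17 at day 3 (edgeR adjusted p = 0.217), not a call. Without control replicate 1, the higher control, the day 5 change was -0.49 (edgeR adjusted p = 0.0694). The call was also lost without day 3 replicate 1 (edgeR adjusted p = 0.0501), day 5 replicate 1 (0.120) or day 5 replicate 2 (0.0848), in a fit of the 4 libraries compared (0.0564), and with limma on FPKM (adjusted p of 0.0562 to 0.124 over its settings). Without control replicate 2 the day 3 difference passed (edgeR adjusted p = 0.0406). Exons of the antisense gene AL357060.1 overlap TNFAIP3, and without stated strand their reads cannot be told apart.

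NFKBIA (chromosome 14, 35401511 to 35404749, minus strand) had 25.5 and 32.4 CPM at day 3, 34.0 and 49.5 CPM at day 5 and 46.1 and 49.2 CPM in control libraries. Day 3 lay below every other library, while day 5 replicate 2 was level with control and day 5 replicate 1 was not. The log2 fold change at day 3 was -0.72 ± 0.21 (edgeR adjusted p = 0.0649), which just missed the threshold, and at day 5 it was -0.19 ± 0.21 (edgeR adjusted p = 0.589). The day 3 difference passed with the replicate block (-0.73, edgeR adjusted p = 0.00142), with no filter on low counts (edgeR adjusted p = 0.00153), with DESeq2 (adjusted p = 0.0209), in a fit of the 4 libraries compared (edgeR adjusted p = 0.0483), and without day 5 replicate 1 or 2 (edgeR adjusted p = 0.0478 and 0.0485).

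CXCL8 and CXCL2, both on chromosome 4, encode secreted chemokines that draw neutrophils. They held the widest single differences among the members: CXCL8 at day 3 and CXCL2 at day 5, each against control. Within a day this does not cover both, since NFKBIA and NFKB2 differed from control more than CXCL2 at day 3, and TNF slightly more than CXCL8 at day 5. CXCL8 (73740506 to 73743716, plus strand), which encodes interleukin-8, had 0.885 and 1.59 CPM at day 3 (17 and 29 counts), 7.07 and 11.7 CPM at day 5 (125 and 215 counts) and 5.07 and 4.74 CPM in control libraries (79 and 99 counts). The 3 groups did not overlap: day 3 was lowest, control lay between and day 5 was highest. At day 3 the log2 fold change was -1.98 ± 0.42 (95% interval -2.96 to -1.01, edgeR adjusted p = 0.0248), a call. At day 5 it was 0.94 ± 0.39 (95% interval 0.04 to 1.84, edgeR adjusted p = 0.148), not a call, and with the replicate block 0.89 (edgeR adjusted p = 0.0476), a call. The day 3 call was lost without control replicate 1 (edgeR adjusted p = 0.0720), day 3 replicate 1 (0.148) or day 3 replicate 2 (0.0773), and with limma on unfiltered FPKM (adjusted p = 0.127), while the fold change stayed between -2.45 and -1.62 over the left-out libraries. Of all genes tested, 1.58% lay below both controls in both day 3 libraries and above both controls in both day 5 libraries, and CXCL8 was the member among them. This order was chosen after the values of CXCL8 were seen, and 3.3% of all genes lay on opposite sides in either order.

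CXCL2 (74097035 to 74099293, minus strand) had 0.417 and 0.769 CPM at day 3 (8 and 14 counts), 2.38 and 5.18 CPM at day 5 (42 and 95 counts) and 0.257 and 0.575 CPM in control libraries (4 and 12 counts). Both day 5 libraries were above all others, while day 3 and control overlapped at levels not far above the floor. At day 5 the log2 fold change was 3.13 ± 0.71 (95% interval 1.50 to 4.77, 8.78-fold, edgeR adjusted p = 0.0258), a call. At day 3 it was 0.47 ± 0.73 (95% interval -1.21 to 2.15, edgeR adjusted p = 0.718). The call was lost without control replicate 1 (edgeR adjusted p = 0.102) or day 5 replicate 2 (edgeR adjusted p = 0.129), and with limma on unfiltered FPKM (adjusted p = 0.0855). The size rested on single libraries as well: the log2 fold change was 2.46 without day 5 replicate 2 and 3.82 without control replicate 2 (edgeR adjusted p = 0.0491), which moves the fold by 1.59 and 1.61 times. CXCL2 has close paralogs in the same cluster, so its few counts are uncertain where reads could be shared. Its relatives CXCL1, CXCL3, CXCL5 and CXCL6 were not among the genes of the count table.

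Set against each other per length, the balance of both chemokine mRNAs differed between KO-labelled and control libraries. The FPKM of CXCL8 was 1.40 and 1.37 times that of CXCL2 at day 3, 1.96 and 1.49 times at day 5 and 13.0 and 5.44 times in control libraries. Every KO-labelled library was below both controls, and the control ratios rest on 4 and 12 counts of CXCL2. The ratio was not tested. The receptors of these chemokines were scarce: CXCR2 had 0 and 15 counts at day 3, 0 and 7 counts at day 5 and 8 and 16 counts in control libraries, CXCR1 had at most 1 count, and ACKR1 was not analysed here.

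IL1B and TNF, the cytokine genes, did not pass any test, and their spread between libraries was wide. IL1B (chromosome 2, 112829751 to 112836903, minus strand), which encodes the precursor of interleukin-1 beta, had 1.46 and 2.47 CPM at day 3, 1.36 and 2.84 CPM at day 5 and 3.47 and 1.53 CPM in control libraries. The groups overlapped, and the 95% interval of the log2 fold change was -1.73 to 1.06 at day 3 and -1.63 to 1.15 at day 5. TNF (chromosome 6, 31575567 to 31578336, plus strand), which encodes tumour necrosis factor, had 44.0 and 111 CPM at day 3, 62.4 and 197 CPM at day 5 and 52.9 and 76.3 CPM in control libraries. Replicate 2 was above replicate 1 in each group, by 2.53 times at day 3, 3.16 times at day 5 and 1.44 times in control. The log2 fold change was 0.26 ± 0.72 at day 3 (edgeR adjusted p = 0.855) and 1.002 ± 0.72 at day 5 (95% interval -0.90 to 2.91, edgeR adjusted p = 0.421), so even a difference of that size was within the replicate spread.

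**Figure D3:**
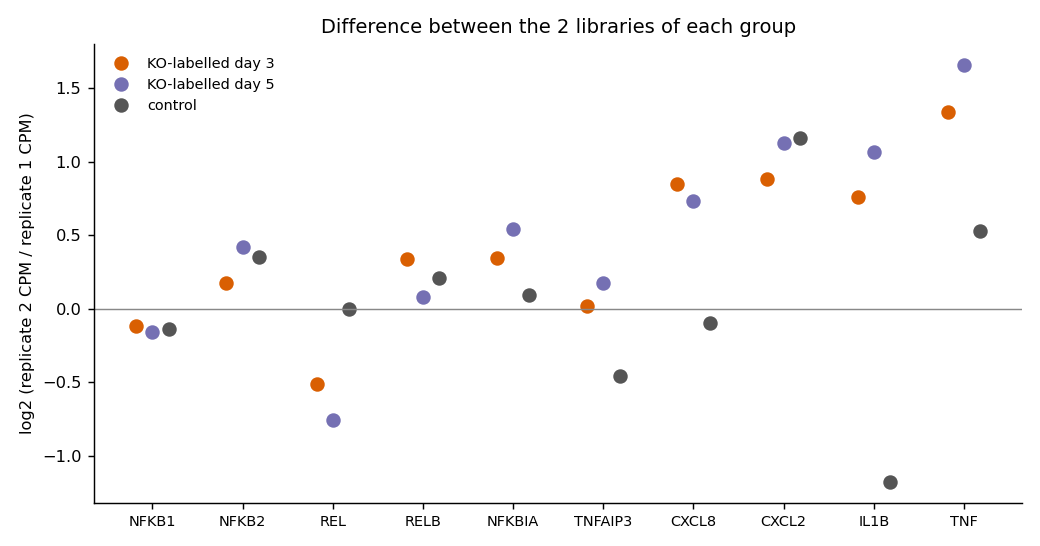
Log2 ratio of replicate 2 over replicate 1 CPM for each member in each group, with 0 meaning equal levels. TNF and CXCL2 lie above 0 in all 3 groups, NFKB1 lies just below 0 in all 3, and IL1B changes side in the control group.

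The same side of this replicate difference recurred across groups for several members, and over all genes the replicate differences of any 2 groups correlated at 0.441 to 0.628. Replicate 2 was above replicate 1 in all 3 groups for 5 members, TNF, CXCL2, NFKBIA, NFKB2 and RELB, where 20.1% of all genes tested were. It was at least 1.3 times replicate 1 in all 3 groups for TNF and CXCL2, as for 5.12% of all genes. It was below in all 3 groups for NFKB1 and REL, where 20.3% of all genes were. Same-numbered libraries also share the letter A or B of their titles, and the labels do not say what it stands for.

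Between the days, no member passed the test without a replicate block, which 0.0274% of all genes passed, all of them higher at day 5. With the block 4 members passed, all higher at day 5, where 7.65% of all genes passed: CXCL8 (2.92 on the log2 scale, edgeR adjusted p = 0.000225), CXCL2 (2.63, 0.0177), NFKB2 (0.56, 0.0280) and NFKBIA (0.52, 0.0444). In edgeR without the block, 0 of 10 members had an adjusted p under 0.05 and 5 had an unadjusted p under 0.05, namely CXCL8, CXCL2, NFKB2 and NFKBIA, higher at day 5, and TNFAIP3, lower at day 5. DESeq2 called 1 member, CXCL8 (adjusted p = 2.05e-06), among 435 of the 14601 genes, and gave CXCL2 no adjusted p. limma on filtered FPKM called 0. CXCL8 had the widest difference, a log2 fold change of 2.92 ± 0.43 (95% interval 1.93 to 3.91, edgeR adjusted p = 0.125). For CXCL2 it was 2.66 ± 0.69 (95% interval 1.08 to 4.25, edgeR adjusted p = 0.196). NFKB2 and NFKBIA differed by 0.57 ± 0.20 and 0.53 ± 0.21 on the log2 scale (edgeR adjusted p = 0.262 and 0.302). Both day 5 libraries lay above both day 3 libraries for 4 members (NFKB2, NFKBIA, CXCL8 and CXCL2; background 25.5%) and below them for 2 (NFKB1 and TNFAIP3; background 23.8%). With no filter on low counts, CXCL8 and CXCL2 passed (edgeR adjusted p = 1.61e-07 and 0.0203), where 599 of 24878 genes passed.

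In the control cells, the members spanned most of the range of levels among the genes tested. Mean FPKM over the 2 control libraries was 38.5 ± 9.36 (SD) for TNF, above 92.7% of all genes tested, then 20.1 ± 0.675 for NFKBIA and 18.8 ± 4.43 for TNFAIP3. NFKB1 followed at 14.6 ± 1.16, NFKB2 at 9.23 ± 1.48, RELB at 4.80 ± 0.433 and CXCL8 at 2.16 ± 0.129. IL1B at 0.809 ± 0.451, REL at 0.720 ± 0.00982 and CXCL2 at 0.276 ± 0.146 came last, CXCL2 above 9.48% of genes. Of neighbours in this order, NFKBIA and TNFAIP3 overlapped in their control values, as did IL1B and REL, and TNFAIP3 and NFKB1 differed by less than the SD of TNFAIP3.

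Other genes of the pathway were read from 8 lists of 154 genes, of which 139 were in the table and 116 were tested; the lists, like the members, were made with earlier results of these data known. Against control, 5 rose and 13 fell at day 3, and 6 rose and 9 fell at day 5 (edgeR adjusted p under 0.05). These are 15.5% of the genes tested at day 3 and 12.9% at day 5, near the 11.7% and 14.5% of all genes. With the replicate block they were 37 at day 3 (31.9%, against 27.8% of all genes) and 44 at day 5 (37.9%, against 30.3%). Between the days edgeR called 0 of the 116, with 16 at an unadjusted p under 0.05, as had 2206 of all 14601 genes tested. DESeq2 called 3, where it called 435 of all genes, and limma called 0. edgeR with the block called 7 (6.03%, against 7.65% of all genes). Among the lists with more than 1 tested gene, the receptor list had the lowest median, a log2 fold change of -1.21 at day 3 and -0.73 at day 5 over 15 tested genes, against -0.00012 and 0.02 over all genes.

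**Figure D4:**
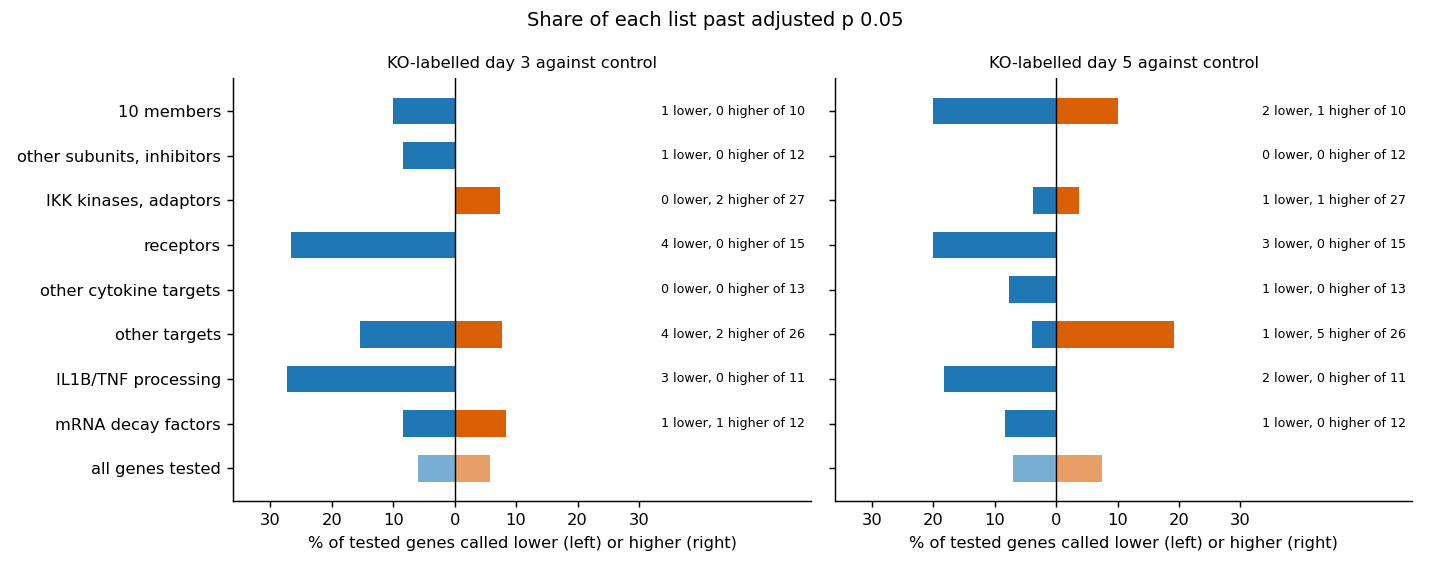
Percent of the tested genes of each list called lower (bars to the left) or higher (bars to the right) in KO-labelled libraries against control at day 3 and day 5, with counts printed and all genes tested in the bottom row. The receptor list has 4 and 3 of 15 lower and none higher.

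Receptors that feed the pathway were lower where they passed: LTBR, TLR2, TLR4 and TLR6 at day 3 (4 of 15) and IL1RAP, TLR2 and TLR4 at day 5 (3 of 15), with none higher; 5.99% and 7.05% of all genes were lower at these days. With the replicate block 8 of 15 were lower and 1 was higher at each day (60% in either direction). Of all genes, 27.8% passed with the block at day 3 and 30.3% at day 5. TLR2, which senses bacterial lipoproteins, had 14.3 and 13.2 CPM at day 3, 14.98 and 13.8 CPM at day 5 and 65.4 and 51.9 CPM in control libraries. Its log2 fold change was -2.09 ± 0.18 at day 3 (edgeR adjusted p = 0.00130) and -2.03 ± 0.18 at day 5 (edgeR adjusted p = 0.00102). TLR4, the receptor of bacterial lipopolysaccharide, had 3.80 and 2.14 CPM at day 3, 4.30 and 3.66 CPM at day 5 and 27.7 and 17.0 CPM in control libraries. It fell by 2.91 on the log2 scale at day 3 (edgeR adjusted p = 0.00451) and by 2.49 at day 5 (edgeR adjusted p = 0.00581). Both receptors were far below control in every KO-labelled library, beside the lower summed level of the myeloid markers given above. LTBR, the lymphotoxin beta receptor, had a log2 fold change of -0.46 at day 3, and IL1RAP, the accessory chain of the interleukin-1 receptor, of -0.73 at day 5.

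Of 27 upstream kinases and adaptors, 2 rose at day 3 (RNF31 and RBCK1), and at day 5 RBCK1 rose and TAB1 fell, or 7.41% at each day, under the 11.7% and 14.5% of all genes. The median log2 fold change was -0.01 at day 3 and -0.05 at day 5, over members that lay on both sides of 0. Blocked by replicate number, 5 passed at day 3 (18.5%, against 27.8% of all genes) and 9 at day 5 (33.3%, against 30.3%). RBCK1 and RNF31 encode HOIL-1 and HOIP, parts of the complex that builds linear ubiquitin chains, and TAB1 encodes a binding partner of the kinase TAK1. RNF31 rose by 0.78 on the log2 scale at day 3 (edgeR adjusted p = 0.0226). RBCK1 had 188 and 210.1 CPM at day 3, 180.0 and 282 CPM at day 5 and 117 and 115 CPM in control libraries, and rose by 0.78 at day 3 and 0.9961 at day 5 on the log2 scale. TAB1 had 56.9 and 53.7 CPM at day 3, 39.6 and 32.1 CPM at day 5 and 72.1 and 75.6 CPM in control libraries, a log2 fold change of -1.04 ± 0.15 at day 5 (edgeR adjusted p = 0.00516). Of the 12 other subunit and inhibitor genes tested, 1 passed at day 3 (8.33%, against 11.7% of all genes). It was CYLD, a deubiquitinase that restrains the pathway, which fell by 0.75 on the log2 scale (edgeR adjusted p = 0.0169). None passed at day 5, where DESeq2 and limma called 1 each. At day 5 an unadjusted edgeR p under 0.05 was found for 3 of them and for 4504 of all 14601 genes. With the block 3 passed at day 3 (25%, against 27.8% of all genes) and 2 at day 5 (16.7%, against 30.3%).

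Among 26 other NF-kB target genes tested, 2 rose and 4 fell at day 3, and 5 rose and 1 fell at day 5, or 23.1% at each day, against 11.7% and 14.5% of all genes. The fit with the replicate block called 11 at day 3 (42.3%, against 27.8% of all genes) and 13 at day 5 (50%, against 30.3%). CFLAR, which encodes the caspase-8 regulator FLIP, had 66.1 and 64.9 CPM at day 3, 73.2 and 73.8 CPM at day 5 and 129 and 136 CPM in control libraries. Its log2 fold change was -1.02 ± 0.12 at day 3 (edgeR adjusted p = 0.00311) and -0.85 ± 0.12 at day 5 (edgeR adjusted p = 0.00451). PSMB9, an immunoproteasome subunit that interferon also induces, rose by 1.59 on the log2 scale at day 3 and by 1.65 at day 5. IER3, an immediate early survival gene, had 3.13 and 4.61 CPM at day 3, 5.77 and 13.9 CPM at day 5 and 1.80 and 1.48 CPM in control libraries, a log2 fold change of 2.58 ± 0.49 at day 5 (edgeR adjusted p = 0.0144). TNFAIP2, a gene first found as TNF-induced, fell by 0.88 on the log2 scale at day 3 (edgeR adjusted p = 0.0194). The remaining calls were TAP1, higher at both days, SDC4 and CCRL2, lower at day 3, and IRF1 and TNFAIP8, higher at day 5.

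Of 13 other chemokine and cytokine genes tested, none passed at day 3, and DESeq2 and limma called 0. An unadjusted edgeR p under 0.05 was found for 2 of them and for 4223 of all 14601 genes. With the block edgeR called 3 (23.1%, against 27.8% of all genes). CCL5, a T cell and monocyte attractant, had 84.0 and 84.5 CPM at day 3, 66.2 and 74.3 CPM at day 5 and 167 and 97.5 CPM in control libraries. It fell by 0.91 on the log2 scale at day 5 (edgeR adjusted p = 0.0419), and by 0.47 without control replicate 1, the higher control (edgeR adjusted p = 0.0702). With the block 4 of the 13 passed at day 5 (30.8%, against 30.3% of all genes). Genes that process or oppose IL1B and TNF were lower where they passed, 3 of 11 at day 3 (NLRP3, NLRP1 and CASP4) and 2 of 11 at day 5 (NLRP3 and IL1RN), where 5.99% and 7.05% of all genes were lower. With the block 4 were lower at each day (36.4%) and none higher. Of all genes, 27.8% passed with the block in either direction at day 3 and 30.3% at day 5. NLRP3, the inflammasome sensor that leads to interleukin-1 beta cleavage, had 110 and 116 CPM at day 3, 122 and 132 CPM at day 5 and 186 and 195 CPM in control libraries. It fell by 0.76 on the log2 scale at day 3 (edgeR adjusted p = 0.00783) and by 0.59 at day 5 (edgeR adjusted p = 0.0153). NLRP1, another inflammasome sensor, and CASP4, a caspase that senses lipopolysaccharide in the cytosol, fell by 1.14 and 0.55 at day 3 (edgeR adjusted p = 0.0255 and 0.0318). IL1RN, the interleukin-1 receptor antagonist, fell by 0.92 at day 5 (edgeR adjusted p = 0.0178).

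Factors that bind AU-rich elements, the decay signals of cytokine mRNAs such as those of TNF and CXCL8, gave 1 gene higher and 1 lower of 12 at day 3 (16.7%, against 11.7% of all genes), and 1 lower at day 5 (8.33%, against 14.5%). With the block 3 passed at day 5 (25%, against 30.3% of all genes). ZFP36L2, which promotes decay of such mRNAs, had 356 and 405 CPM at day 3, 372 and 408 CPM at day 5 and 1223 and 966 CPM in control libraries. Its log2 fold change was -1.53 ± 0.15 at day 3 (edgeR adjusted p = 0.00194) and -1.49 ± 0.15 at day 5 (edgeR adjusted p = 0.00165), with every KO-labelled library below both controls. HNRNPD, which encodes the AU-binding protein AUF1, rose by 0.67 on the log2 scale at day 3 (edgeR adjusted p = 0.0464).

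Leaving out 1 library leaves a group with 1, and the calls over all genes then fell to as few as 217 at day 3 and 645 at day 5, so a lost call there is no measure of a smaller difference. All 37 calls of members and lists kept their sign without each library. The fold moved by over 1.5 times for CXCL2 and IER3, both at day 5, with IER3 at 1.81 on the log2 scale without day 5 replicate 2. On the log2 scale itself, the day 5 change of IL1RAP was -0.46 without control replicate 1, and those of RBCK1 and IRF1 were 0.63 and 0.50 without day 5 replicate 2. NLRP3 stayed between -0.80 and -0.72, CASP4 between -0.58 and -0.50 and RNF31 between 0.73 and 0.85 at day 3. Of the 18 list calls at day 3, 14 missed the threshold without at least 1 library, and of the 15 at day 5, 10 did. TLR2, TLR4, CFLAR and ZFP36L2 kept their calls at both days, and TAB1 at day 5, without each library in turn. With at least 1 other tool or setting, 14 of the 18 list calls at day 3 and 10 of the 15 at day 5 were lost. TLR4 was among these, with limma on unfiltered FPKM (adjusted p = 0.0674 at day 3 and 0.0672 at day 5). Its day 5 call was also lost with limma on filtered FPKM plus 0.1 (adjusted p = 0.0511). At day 3, CYLD, HNRNPD, NLRP1, RNF31 and TNFAIP2 missed the threshold without control replicate 1, day 3 replicate 1 or day 3 replicate 2 (edgeR adjusted p of 0.0529 to 0.206). CASP4, LTBR and SDC4 did so without any library but control replicate 2 (0.0538 to 0.236). CCRL2 and RBCK1 did so without any control or day 3 library (0.0702 to 0.221), TLR6 without any library (0.0517 to 0.253), NLRP3 and PSMB9 without a day 3 library (0.0754 to 0.0984), and TAP1 without a control or day 3 replicate 2 (0.136 to 0.192). At day 5, CCL5 and IL1RAP missed it without any library but control replicate 2 (edgeR adjusted p of 0.0518 to 0.167), IL1RN and NLRP3 without a day 5 library (0.0630 to 0.0889), and IER3 without control replicate 2 or day 5 replicate 2 (0.0574 and 0.0732). PSMB9 missed it without day 5 replicate 2 (0.0705), RBCK1 and TAP1 without a control or day 5 replicate 2 (0.0640 to 0.154), IRF1 without any library but day 5 replicate 1 (0.0559 to 0.206), and TNFAIP8 without any library (0.0529 to 0.149).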

How the data were processed

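The 6 libraries of MOLM-13 poly-A RNA were read from 1 table of read counts and FPKM per gene for 24878 genes, deposited by the authors. The submitters' processing notes name HISAT2, HTSeq 0.11.2, DESeq2 1.26.0 and GRCh38, with no role or order; for the annotation, the counting options and the strand setting, nothing is given in the sources used here. Gene names and lengths match GENCODE 29: the exon length implied by the deposited FPKM values lay within 0.5 base for 99.5% of 10739 genes. Every gene ID and name was found there.

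Deposited counts were tested with edgeR 4.0.16 (R 4.3.3): TMM scaling, filterByExpr (minimum count 10, minimum total 15), a robust quasi-likelihood fit of all 6 libraries in 3 groups, and Benjamini-Hochberg adjustment over the 14601 genes tested, with a call at 0.05. Alternatives were other scalings and filters, DESeq2 1.42.0, the 4 libraries compared, a replicate block, limma 3.58.1 on log2 of the deposited FPKM plus 1 or 0.1, and each library left out. The scripts were tested on simulated data. Same-numbered libraries share the letter A or B of their titles, whose meaning the labels do not give. Their deviations went together: the difference between replicates correlated at 0.514 between day 3 and control, 0.441 between day 5 and control and 0.628 between day 5 and day 3, over 10189 genes. The fit without the replicate block is the one reported. The paired fit, with the block, is given where it changes a call of a member or the count of a pathway list against control. Replicates differed by more than counting noise (chi-square over degrees of freedom 17.4 to 37.7). The tested genes held over 99.8% of each library's counts.

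The members and the pathway lists were chosen with earlier results of these data known. From each list, up to 4 genes past the threshold were named with values, in order of adjusted p, if their mean was at least 1 CPM; the other calls are named without levels. FPKM served to compare levels between genes. Promoters came from RefSeq (GRCh38.p14). Protein sequences were not used here.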

Additional observations from a re-analysis of the deposited data

Results flagged for a closer look

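CXCL8 was on opposite sides of the control libraries at the 2 days: both day 3 libraries (0.885 and 1.59 CPM) lay below, and both day 5 libraries (7.07 and 11.7 CPM) above, the control libraries (5.07 and 4.74 CPM). Of all genes tested, 3.3% lay on opposite sides in either order. The direct comparison of day 5 with day 3 gave a log2 fold change of 2.92 ± 0.43, which did not pass edgeR's test over all genes (adjusted p = 0.125), while DESeq2 (adjusted p = 2.05e-06) and edgeR with the replicate block (adjusted p = 0.000225) called it.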

How the results depend on the processing

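With 2 libraries a group, calls depended on the tool, on the filter and on single libraries; the causes were not tested. Members called at day 3, 1 in the fit reported, were 2 with no filter, 2 with DESeq2, 2 with the 4 libraries compared and 0 with unfiltered limma, and 0 to 2 without 1 library. At day 5, 3 members were called, 0 with unfiltered limma and 0 to 3 without 1 library. Between the days 0 were called, 2 with no filter, 1 with DESeq2 and 0 without any 1 library. All genes called at day 3 were 1710, with 2925 for no filter, 2638 for DESeq2, 415 for unfiltered limma and 217 to 1825 without 1 library. At day 5 they were 2117, with 3234 for no filter, 1262 for the 4 libraries, 872 for unfiltered limma and 645 to 1756 without 1 library. Between the days they were 4, with 599 for no filter, 435 for DESeq2, 1 for limma with FPKM plus 1, 0 for FPKM plus 0.1, 0 unfiltered and 0 to 4 without 1 library. CXCL2 and IL1B gave no value under the 5 CPM filter.

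With the replicate block, 4 members were called at day 3, 4 at day 5 and 4 between the days, and 4064, 4418 and 1117 of all genes. The block ended no call of a member or of a named list gene, and the calls it added among members stand beside their results.

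RELB at day 5 was at 0.00 and turned to -0.018 with RLE factors, -0.042 with no filter, -0.0063 with the 5 CPM filter and -0.019 with DESeq2. Without 1 library in turn, these uncalled log2 fold changes changed sign. At day 3 they were RELB (-0.27 to 0.060), CXCL2 (-0.015 to 1.19), IL1B (-0.81 to 0.36) and TNF (-0.54 to 0.79). At day 5 they were NFKB2 (-0.17 to 0.25), RELB (-0.096 to 0.092), NFKBIA (-0.49 to 0.055), IL1B (-0.87 to 0.45) and TNF (-0.053 to 1.60). Between the days they were REL (-0.64 to 0.12), RELB (-0.078 to 0.25), IL1B (-0.53 to 0.53) and TNF (-0.32 to 1.52). No called member changed sign under any alternative run. Where a left-out library left 1 in its group, that library was assumed to vary like the other groups. Low counts limit CXCL2 and IL1B.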

Other observations

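NFKBIZ, which encodes the nuclear IkB protein IkB-zeta, was picked out after its values were seen, because it had the same order of groups as CXCL8. It had 3.07 and 4.61 CPM in KO-labelled day 3 libraries, 7.52 and 14.0 CPM in KO-labelled day 5 libraries and 6.42 and 7.33 CPM in control libraries. Neither difference from control passed (log2 fold change -0.84 ± 0.38 at day 3 and 0.65 ± 0.37 at day 5, edgeR adjusted p = 0.185 and 0.277), and neither did the difference between the days (1.49 ± 0.38, edgeR adjusted p = 0.196). With the replicate block the day 3 difference (-0.86, edgeR adjusted p = 0.0345) and the difference between the days (1.46, edgeR adjusted p = 0.00558) passed, and day 5 against control did not (edgeR adjusted p = 0.117).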
